A study of Homo sapiens with 6 samples.

Results

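The genes described here are 48 components of the DNA replication machinery, listed by name: the proteins that license and fire replication origins, the replicative helicase, the DNA polymerases, the sliding clamp and its loaders, the enzymes that supply deoxynucleotides, and the factors that protect the fork and rebuild chromatin behind it. All 48 were found among the 21776 genes of the count table. RNA sequencing was performed on wild-type SCC25 cells, an established line of human oral squamous cell carcinoma, grown in DMEM/F12 medium with fetal bovine serum and antibiotics. This identity is that of the sample labels, while the count columns name only HNSCC. The paper names another oral squamous cell carcinoma line, SCC9, for its pathway analysis of hypoxic cells. Which line was sequenced was not settled here. The hypoxia group was kept for 12 h in a gas mixture with 1% O2, CO2 and nitrogen, and the normoxia group for 12 h in an incubator with air and CO2. Each group had 3 libraries, with totals of 30186813, 36076088 and 32272716 reads for hypoxia (replicates 1 to 3) and 37278703, 29637189 and 29981208 reads for normoxia. The labels do not say whether the replicates were separate cultures, so the p-values measure the spread between these libraries, which may be technical, and the results concern 1 cell line.

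Eukaryotic replication starts in G1, when ORC, CDC6 and CDT1 load the MCM2-7 ring onto origins. In S phase the ring is activated by CDC45, GINS and MCM10, polymerase alpha with primase lays down primers, and polymerases epsilon and delta copy the leading and lagging strands on the PCNA clamp. Many of these genes are transcribed in a wave at the G1/S boundary under E2F transcription factors, and proliferating tumour cells express them strongly. In RNA from a bulk culture, fewer cells in S phase and less RNA per cell cannot be told apart.

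The promoters of the genes are shown first because the letters they share were not used to list them. RefSeq promoter windows on GRCh38.p14, from 250 bases before to 50 bases after each gene start, matched 41 of the 48 genes with 54 windows. The 250 bases before the start are printed 5′ to 3′ on the strand of the gene for 4 genes: MCM6 as a helicase subunit with 4 matches to E2F letters, TIPIN as the gene with the largest fall under hypoxia, CDT1 as the gene with the smallest, and RRM2 as a gene that fell without E2F letters. Capitals mark E2F letters in MCM6 (chr2:135876444-135876693, minus strand), TIPIN (chr15:66356686-66356935, minus strand) and CDT1 (chr16:88803539-88803788, plus strand), and CCAAT boxes in RRM2 (chr2:10122489-10122738, plus strand).
MCM6: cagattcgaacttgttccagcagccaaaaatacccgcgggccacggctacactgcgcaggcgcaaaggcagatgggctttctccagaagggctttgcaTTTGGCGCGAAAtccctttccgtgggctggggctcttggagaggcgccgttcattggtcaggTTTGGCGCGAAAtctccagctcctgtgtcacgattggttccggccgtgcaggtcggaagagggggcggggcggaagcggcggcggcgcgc
TIPIN: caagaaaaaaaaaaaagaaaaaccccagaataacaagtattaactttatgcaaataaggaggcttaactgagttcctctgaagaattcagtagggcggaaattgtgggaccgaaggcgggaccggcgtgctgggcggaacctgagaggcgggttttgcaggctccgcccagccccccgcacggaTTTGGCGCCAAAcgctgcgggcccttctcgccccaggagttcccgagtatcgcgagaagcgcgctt
CDT1: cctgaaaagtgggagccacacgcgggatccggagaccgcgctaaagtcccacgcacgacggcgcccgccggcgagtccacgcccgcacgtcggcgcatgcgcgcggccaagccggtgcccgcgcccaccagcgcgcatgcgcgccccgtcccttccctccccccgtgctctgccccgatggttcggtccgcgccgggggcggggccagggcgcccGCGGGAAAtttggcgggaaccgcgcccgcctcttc
RRM2: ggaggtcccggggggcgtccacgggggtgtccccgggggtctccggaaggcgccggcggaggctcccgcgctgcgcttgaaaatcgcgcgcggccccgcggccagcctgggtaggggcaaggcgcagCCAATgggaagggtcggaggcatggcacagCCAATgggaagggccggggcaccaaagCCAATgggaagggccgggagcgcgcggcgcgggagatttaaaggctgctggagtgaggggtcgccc
In MCM6 and TIPIN the matches of both strands overlap, so that each capital run holds a match on each strand.

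The E2F letters searched were TTTCCCGC, TTTGGCGC, TTTCGCGC and TTTGCCGC on both strands. At least 1 of them stood in 22 of the 54 windows of the replication genes (40.7%), against 1164 of all 35116 promoter windows (3.31%), 4.87% of the windows of the genes tested for expression and 6.39% of those of genes that were lower under hypoxia. The windows of 21 genes held them, and 22 of their 29 matches lay within 100 bases of the gene start. A site that matched on both strands is counted on each. The positions of matches in all promoters were not counted, so this number has no background. The share was 26.1% for genes of G1/S control, 23.8% for genes of homologous recombination and the Fanconi pathway, 22% for the other replication genes and 17.4% for genes of mitosis. The CCAAT box, read by the factor NF-Y, stood in 61.1% of the replication windows, in 78.3% of the windows of mitosis genes, in 50% of those of hypoxia response genes and in 34.6% of all windows. The letters TTTGAA, the core of the cell cycle element CHR known from mitotic promoters, stood in 1 of the 54 windows (1.85%), against 15.2% of all windows and 65.2% of those of mitosis genes. ACGTG, the core to which hypoxia-inducible factors bind, was found in 31.5% of the replication windows, in 34.8% of those of mitosis and of G1/S control genes, in 38.1% of those of homologous recombination and Fanconi genes, and in 50% of those of hypoxia response genes. It stood in 25.2% of the windows of the genes tested and in 21.4% of all windows. Genes with E2F letters had a median log2-fold change of -1.20 under hypoxia (21 genes), and genes without them -1.02 (20 genes). With the letters the genes ran from TIPIN to CDT1 and without them from RRM2 to RFC1, so both classes held large and small changes. A match of letters is a description of the window and not a binding site.

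The labels were checked on known responders to hypoxia. VEGFA, the angiogenic growth factor, measured 1202, 1317 and 1315 CPM (reads scaled to the normalized total of a library) under hypoxia (replicates 1 to 3) and 180, 168 and 205 CPM under normoxia. CA9, a carbonic anhydrase, measured 262, 277 and 293 CPM against 32.2, 27.3 and 67.7 CPM. EGLN3, a prolyl hydroxylase that acts on hypoxia-inducible factors, measured 609, 732 and 745 CPM against 5.86, 3.74 and 10.7 CPM. All 15 genes of a hypoxia response list were higher under hypoxia by edgeR's quasi-likelihood test, against 39.2% of all genes tested. Their median log2-fold change was 2.71. Normoxia replicate 3 had the highest level of the 3 normoxia libraries for each of these 3 genes, and the mean log2 CPM of the 15 genes was 5.68, 5.58 and 6.04 under normoxia.

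The cell type was checked on marker genes. The summed level of 10 squamous epithelial markers was 2204, 2369 and 2296 CPM under hypoxia (replicates 1 to 3) and 1470, 1467 and 1619 CPM under normoxia, with the laminin subunit LAMB3 as the most abundant. Of these markers 5 were higher and 3 lower under hypoxia, TP63 did not pass the test, and KRT14, a defining basal keratin, was at 3 or fewer counts in every library. Fibroblast markers summed to 22.1, 18.7 and 17.1 CPM under hypoxia and 4.03, 3.15 and 5.64 CPM under normoxia, nearly all of it from COL1A1. COL1A1 was higher under hypoxia (log2-fold change 2.26, adjusted p = 1.02e-09, edgeR), and COL3A1 was at 3 or fewer counts in every library. Leukocyte markers summed to between 32.9 and 39.6 CPM in the 6 libraries, with CD68 as the most abundant and with PTPRC and CD3E at 3 or fewer counts in every library. CD14, another gene of that list, was at 5.83 ± 0.445 CPM under hypoxia and 1.07 ± 0.481 CPM under normoxia (SD, n = 3) and was higher under hypoxia (log2-fold change 2.45, adjusted p = 7.27e-08, edgeR). Endothelial markers summed to 1.54, 1.24 and 1.48 CPM under hypoxia and 0.296, 0.315 and 0.744 CPM under normoxia. Of these, CDH5 was higher under hypoxia (log2-fold change 1.14, adjusted p = 0.025, edgeR). The part of these markers in the results on replication genes was not tested.

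Transcripts of nearly all of the 48 replication genes were lower under hypoxia. Only RNA was measured in these libraries, and not protein or replication itself. Of the 48 genes, 47 were lower by edgeR's quasi-likelihood test (p-values adjusted over 14255 genes by the Benjamini-Hochberg method, threshold 0.05), none was higher, and CDT1 did not pass. The 48 genes were listed with earlier results of these data known, so their count is a description and not independent support. The background is high in these data: 77.8% of all genes tested passed, 38.5% as lower and 39.2% as higher. The biological coefficient of variation between libraries of a condition was small, at 0.0685. Among the 9488 genes at least as abundant as the least abundant replication gene, 50.7% were lower. The median log2-fold change was -1.14 for the 48 genes and 0.02 for all genes tested. A log2-fold change under -1 was reached by 32 of the 48 and by 10.6% of all genes. When a fold change beyond 1.5 was required by the test (glmTreat), 39 of the 48 were lower, against 17.5% of all genes, and the other 9 were CDT1, POLA1, POLD1, POLD2, POLE, RFC1, RPA1, RPA3 and TK1. On the log2(FPKM + 1) scale, limma found 45 of the 48 lower and none higher, against 44.3% and 36.7% of the genes it tested.

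The conditions did not overlap in 47 of the 48 genes, with all hypoxia values under all normoxia values, which held for 39.9% of all genes tested. In either direction 80.5% of all genes had no overlap. The summed counts of the 48 genes made up 0.406%, 0.365% and 0.389% of all counts under hypoxia (replicates 1 to 3) and 0.781%, 0.781% and 0.732% under normoxia. Their summed level was 3805 ± 245 CPM under hypoxia and 7779 ± 335 CPM under normoxia (SD, n = 3). The log2-fold changes had an SD of 0.41 between genes, quartiles of -1.38 and -0.88, and lay within 0.25 of the median in 23 genes. They did not follow abundance closely, with a Pearson r of 0.12 and a Spearman rho of 0.14 against the log2 FPKM under normoxia across the 48 genes, which share their libraries and are not independent replicates. The smallest count behind any of these values was 164 reads, for POLE2.

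**Figure D1:**
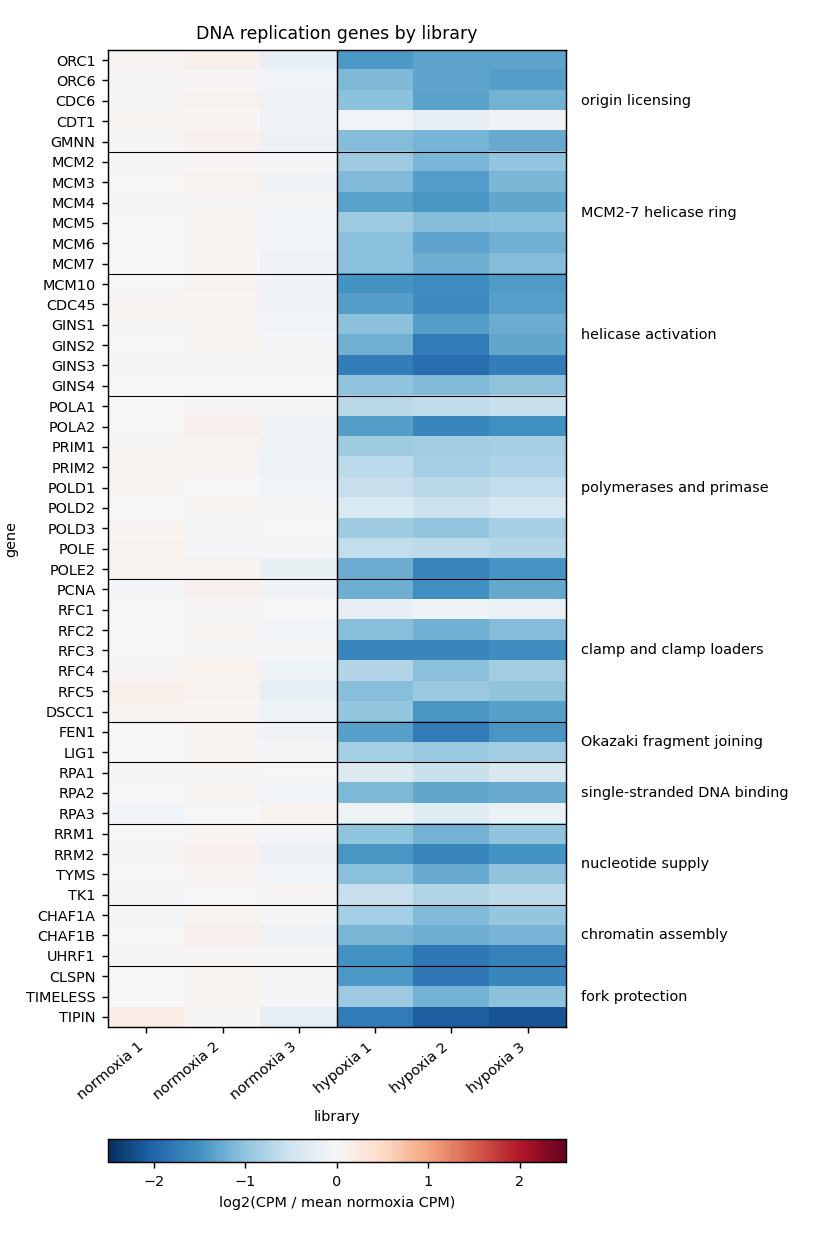
The level of each of the 48 replication genes (rows, grouped by role) in each library (columns), as log2 of the CPM over the mean CPM of the normoxia libraries, on a colour scale that ends at 2.5 in either direction. The hypoxia columns are lower in every row but that of CDT1, where the conditions overlap, and the rows of RFC1, RPA1 and RPA3 are pale.

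Transcripts of the origin licensing genes were lower except for that of CDT1. ORC1, the ATPase of the origin recognition complex that is made and destroyed in each cycle, measured 27.1, 29.4 and 29.6 CPM under hypoxia (replicates 1 to 3) and 76.9, 79.6 and 63.6 CPM under normoxia (log2-fold change -1.35, standard error 0.079). ORC6, the smallest subunit, had a log2-fold change of -1.27, and CDC6, the ATPase that helps to load the helicase, one of -1.17. Geminin, the inhibitor of CDT1 encoded by GMNN, measured 26.4, 24.8 and 23.4 CPM under hypoxia and 56.6, 59.9 and 50.6 CPM under normoxia. CDT1, the loader that geminin holds in check, measured 82.1, 73.5 and 80.1 CPM under hypoxia and 88.2, 88.6 and 80.4 CPM under normoxia. The conditions overlapped for CDT1, with hypoxia replicate 1 above normoxia replicate 3, a log2-fold change of -0.13 and a 95% interval from -0.25 to 0.00 (adjusted p = 0.066, edgeR). CDT1 did pass as lower with no filter on low counts, without hypoxia replicate 1 and without normoxia replicate 3 (adjusted p = 0.015, 0.039 and 0.0051, edgeR). Within each library, CDT1 was 4.97 ± 0.36 times as high as GMNN per length under hypoxia and 2.42 ± 0.09 times under normoxia (SD, n = 3).

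Transcripts of the 6 subunits of the MCM2-7 ring, which opens the DNA ahead of the fork, fell together. MCM2 fell by 50.1%, the least of the 6, and MCM4 fell by 61.2%, the most. MCM7, the most abundant of the 48 genes, measured 516, 457 and 498 CPM under hypoxia (replicates 1 to 3) and 1075, 1104 and 1004 CPM under normoxia. MCM4 measured 126, 117 and 130 CPM under hypoxia and 325, 326 and 310 CPM under normoxia. Hypoxia replicate 2 was the lowest library for all 6 subunits. Per length, the condition means had the same order under both conditions, MCM7 over MCM2, MCM3, MCM4, MCM5 and MCM6. MCM7 had a mean of 346 FPKM and MCM6 of 40.2 FPKM under normoxia, and of 165 and 18.2 FPKM under hypoxia. The order of MCM3 and MCM4 was not that of every library: in normoxia replicate 3 they stood at 72.5 and 73.2 FPKM.

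Transcripts of the factors that turn the loaded ring into an active helicase were all lower. Their median log2-fold change was -1.42 over 6 genes. Differences between the roles were not tested. GINS3, a subunit of the GINS complex, measured 12.1, 10.8 and 12.0 CPM under hypoxia and 40.4, 40.5 and 38.5 CPM under normoxia (log2-fold change -1.78, standard error 0.080). CDC45, the third partner in the active helicase, measured 29.8, 26.1 and 30.2 CPM under hypoxia against 80.6, 81.1 and 71.9 CPM. Its log2-fold change was -1.44, and that of MCM10, which joins in starting the forks, was -1.49. GINS1, GINS2 and GINS4 had log2-fold changes of -1.20, -1.41 and -1.04. The order of the GINS subunits per length was not the same in the conditions: GINS2 was the highest under normoxia at 19.6 ± 0.60 FPKM, beside 19.2 ± 0.77 FPKM for GINS1, and GINS1 under hypoxia at 8.62 ± 1.02 FPKM, beside 7.67 ± 1.37 FPKM for GINS2. The means of these neighbours lay within the spread between libraries, but within each library GINS2 was above GINS1 in all 3 normoxia libraries and under it in all 3 hypoxia libraries, an order that was not tested.

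The 9 genes of the polymerases and primase were lower, with a median log2-fold change of -0.76. Of the catalytic subunits, POLA1 of polymerase alpha had a log2-fold change of -0.63, POLD1 of polymerase delta -0.63 and POLE of polymerase epsilon -0.67. The second subunits of polymerases alpha and epsilon had larger changes than the catalytic subunits beside them. POLA2 measured 36.7, 30.8 and 33.2 CPM under hypoxia (replicates 1 to 3) and 94.4, 103 and 89.2 CPM under normoxia (log2-fold change -1.51, standard error 0.072). POLE2, the least abundant of the 48 genes in counts, measured 5.93, 4.46 and 5.05 CPM against 14.9, 14.9 and 12.3 CPM (log2-fold change -1.45, standard error 0.13). POLD2, an accessory subunit of polymerase delta, had the smallest fall of the group, -0.45, from 489, 509 and 487 CPM to 380, 339 and 367 CPM. POLD3, another accessory subunit of polymerase delta, had a log2-fold change of -0.91. PRIM1 and PRIM2, the small and large subunits of primase, had log2-fold changes of -0.85 and -0.76, and their ratio per length was 6.78 ± 0.47 under hypoxia and 7.23 ± 0.22 under normoxia (SD, n = 3).

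**Figure D2:**
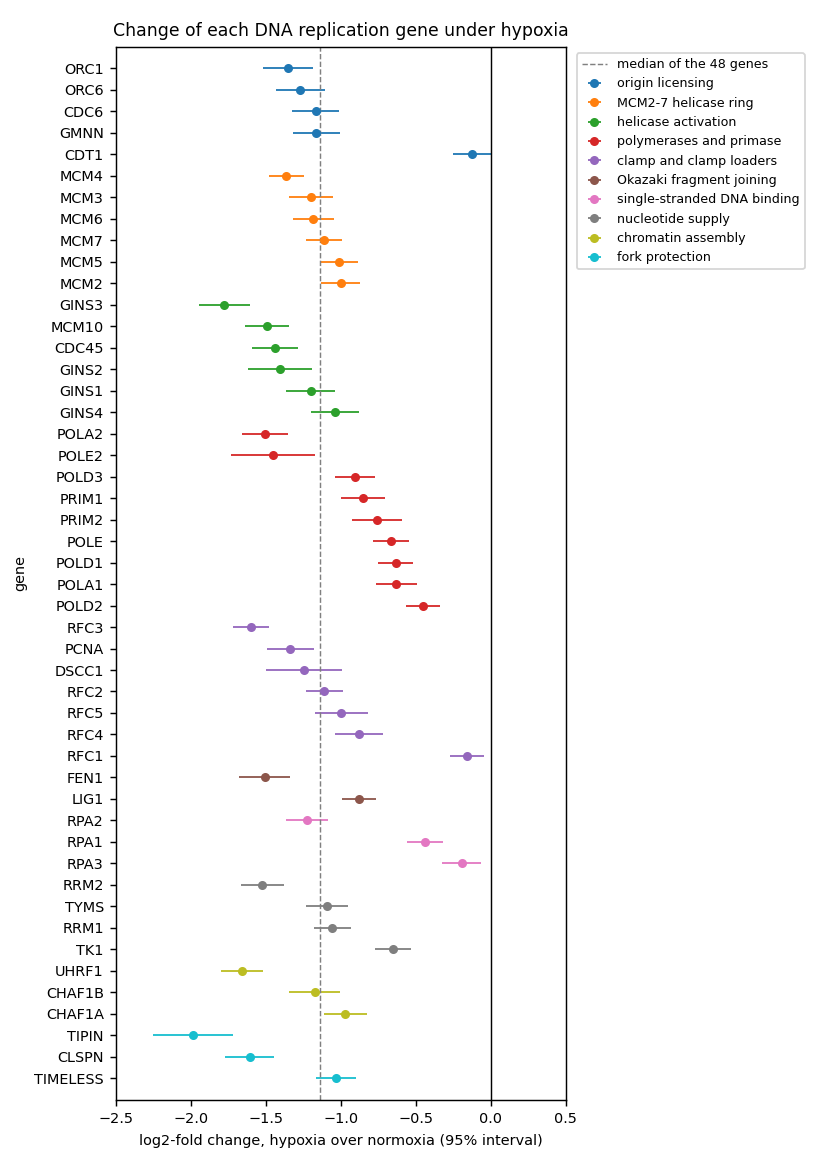
The log2-fold change of hypoxia over normoxia of each of the 48 replication genes (points, coloured by role) with its 95% interval (bars), with the median of the genes as a dashed line. The values run from -1.99 for TIPIN to -0.13 for CDT1, around a median of -1.14.

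PCNA, the sliding clamp that holds polymerases on DNA, measured 205, 164 and 196 CPM under hypoxia (replicates 1 to 3) and 462, 516 and 451 CPM under normoxia (log2-fold change -1.34, standard error 0.075). The 5 subunits of its loader, replication factor C, did not move alike. RFC3 measured 42.1, 42.7 and 44.9 CPM under hypoxia and 132, 135 and 127 CPM under normoxia (log2-fold change -1.60). RFC1, the large subunit, measured 79.7, 85.5 and 82.0 CPM under hypoxia and 91.4, 93.8 and 90.9 CPM under normoxia (log2-fold change -0.16, adjusted p = 0.012, edgeR). This small fall of RFC1 did not pass with library totals in place of TMM (adjusted p = 0.070) or with at least 10 counts in each library required (adjusted p = 0.17). RFC2 and RFC4 had log2-fold changes of -1.11 and -0.88, and RFC5 fell by 49.9%. The order of the condition means per length, RFC2 over RFC4, RFC1, RFC5 and RFC3, was the same in both conditions. The span from the highest to the lowest mean was 8.93-fold under normoxia and 12.5-fold under hypoxia. RFC5 and RFC3 lay close under normoxia, with means of 12.9 ± 1.64 and 11.5 ± 0.28 FPKM (SD, n = 3). In normoxia replicate 3, RFC3 was above RFC5. DSCC1, a subunit of the alternative clamp loader that serves sister chromatid cohesion, had a log2-fold change of -1.25.

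Transcripts of the enzymes that finish the lagging strand were both lower. FEN1, the nuclease that trims the flaps of Okazaki fragments, measured 75.9, 57.9 and 70.5 CPM under hypoxia (replicates 1 to 3) and 196, 204 and 182 CPM under normoxia (log2-fold change -1.51). LIG1, the ligase that seals them, had a log2-fold change of -0.88. Of replication protein A, which coats single-stranded DNA, the subunits changed unequally. RPA2 measured 30.7, 27.3 and 28.0 CPM under hypoxia and 67.5, 70.4 and 63.8 CPM under normoxia (log2-fold change -1.23). RPA1 had a log2-fold change of -0.44. RPA3 measured 67.7, 60.6 and 66.7 CPM against 70.9, 73.5 and 78.9 CPM (log2-fold change -0.20, adjusted p = 0.0087, edgeR), a difference that did not pass with at least 10 counts in each library required (adjusted p = 0.089). Per length the means of the 3 subunits lay within 1.08-fold of each other under normoxia and within 2.21-fold under hypoxia. Single libraries could be wider apart: in normoxia replicate 3, RPA3 stood at 38.5 and RPA2 at 31.9 FPKM.

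**Figure D3:**
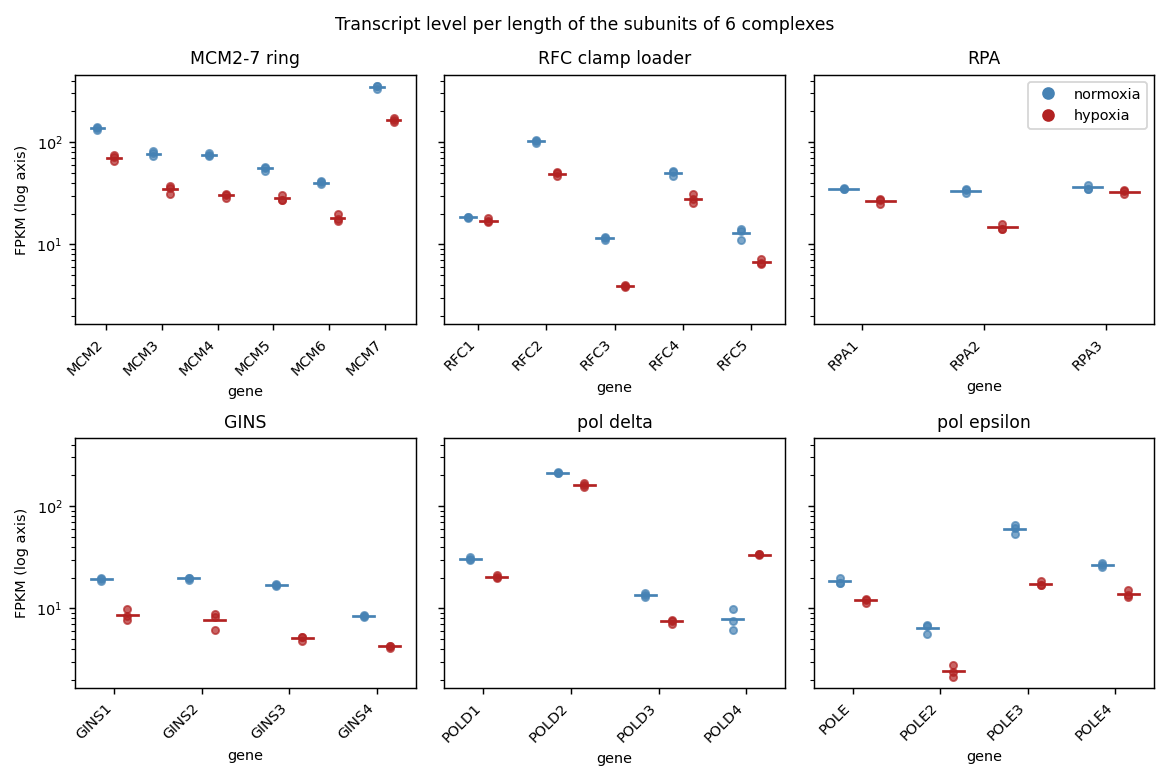
FPKM (log axis) of the subunits of the MCM2-7 ring, replication factor C, replication protein A, GINS and polymerases delta and epsilon in each normoxia and hypoxia library (points), with the mean of each condition (lines). RFC1 and RPA3 differ little between the conditions beside partners that are lower under hypoxia, and POLD4 is the subunit that is higher.

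All 4 genes of the nucleotide supply were lower. RRM2, the small subunit of ribonucleotide reductase that is made for S phase, measured 143, 125 and 138 CPM under hypoxia (replicates 1 to 3) and 396, 419 and 351 CPM under normoxia (log2-fold change -1.53, standard error 0.068). RRM1, its large subunit, had a log2-fold change of -1.06. TYMS, the thymidylate synthase, had one of -1.09 and TK1, the cytosolic thymidine kinase, one of -0.65. Within each library RRM2 stood at 0.815 ± 0.014 of RRM1 per length under hypoxia and at 1.12 ± 0.06 under normoxia. Against RRM2B, the alternative small subunit induced by p53, RRM2 was 5.83, 3.82 and 4.64 times as high in the hypoxia libraries and 12.1, 11.7 and 11.6 times in the normoxia libraries. The hypoxia libraries spread more in this ratio, but lay well under the normoxia libraries.

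UHRF1, which reads hemimethylated DNA behind the fork and brings in the maintenance methyltransferase, measured 83.3, 68.8 and 74.6 CPM under hypoxia and 243, 243 and 230 CPM under normoxia (log2-fold change -1.66, standard error 0.065). CHAF1A and CHAF1B, subunits of the histone chaperone CAF-1, had log2-fold changes of -0.97 and -1.18. The largest fall of the 48 genes was that of a factor that protects the fork. TIPIN, the partner of TIMELESS, measured 7.96, 6.43 and 6.01 CPM under hypoxia (replicates 1 to 3) and 30.5, 27.4 and 22.8 CPM under normoxia. Its log2-fold change of -1.99 (95% interval -2.25 to -1.73) corresponds to a 3.97-fold lower level. CLSPN, which encodes the checkpoint mediator claspin, measured 27.4, 21.5 and 23.6 CPM against 73.5, 76.2 and 71.3 CPM (log2-fold change -1.61), and TIMELESS had a log2-fold change of -1.03.

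The ratios of partners within a library do not depend on how libraries are scaled, and 7 were compared by a two-sided exact permutation test over the 6 libraries, which cannot give a p-value below 0.1. CDT1 to GMNN, RRM2 to RRM2B, RRM2 to RRM1, ORC1 to ORC2, POLE2 to POLE3 and CDC6 to MCM2 all reached this smallest p-value, 0.1 (0.117 after adjustment over the 7), with no overlap between the conditions. PRIM1 to PRIM2 did not (exact permutation p = 0.2). Ratios of other gene pairs were not computed as a background, so it is not known whether these partners separate the conditions more often than other pairs. Such separation was common for single genes, at 80.5% of all genes tested. The ratio of ORC1 to ORC2, a subunit of the origin complex with a more even level through the cycle, was 1.53 ± 0.11 under hypoxia and 2.80 ± 0.31 under normoxia. That of POLE2 to POLE3, a small subunit of polymerase epsilon, was 0.139 ± 0.011 and 0.108 ± 0.006, and that of CDC6 to MCM2 0.192 ± 0.006 and 0.216 ± 0.009 (SD, n = 3). Chosen after their values were seen and given as a description, RPA2 stood at 0.453 ± 0.019 of RPA3 under hypoxia and 0.930 ± 0.087 under normoxia, and RFC3 at 0.229 ± 0.011 and 0.621 ± 0.010 of RFC1.

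A list of 44 other replication genes, of which 43 were tested, moved the same way by a smaller amount: 40 were lower and 1 higher by edgeR, with a median log2-fold change of -0.80. The largest falls were those of POLE3 (-1.82), of DBF4, the activator of the origin-firing kinase CDC7 (-1.64), and of DCTPP1, which degrades unwanted deoxynucleotides (-1.58). POLD4, the smallest subunit of polymerase delta, was the gene that was higher. It measured 56.5, 55.5 and 55.7 CPM under hypoxia (replicates 1 to 3) and 12.8, 10.7 and 17.1 CPM under normoxia (log2-fold change 2.05, standard error 0.11). RRM2B (-0.18) and RNASEH2C (0.11), a subunit of ribonuclease H2, did not pass. Among all genes that the authors' annotation gives the GO term DNA replication, 66 genes outside the 48 were tested, of which 48 were lower and 10 higher with a median of -0.64. Part of these genes also stand in the lists used here. Of the 43 that are in none of them, 25 were lower, 10 higher and 8 did not pass, with a median of -0.31. These groups were added after the data were seen.

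The genes that control entry into S phase were split. Of 24, 20 were lower and 4 higher, with a median log2-fold change of -1.02. MYC, the growth-promoting transcription factor, measured 42.8, 28.2 and 33.6 CPM under hypoxia and 250, 256 and 261 CPM under normoxia (log2-fold change -2.88, standard error 0.10). CDC25A, the phosphatase that activates CDK2, had a log2-fold change of -2.64 and CCND1, which encodes cyclin D1, one of -2.22. The largest increases on the log2 scale were those of CDKN1B, which encodes the CDK inhibitor p27 (0.86), and RBL2, which encodes the pocket protein p130 (0.81). CDKN1A, which encodes p21, rose by 0.57. The other pocket protein genes of the list, RBL1 and RB1, were lower (log2-fold changes -1.07 and -0.40). A link between the role of a gene in the cycle and its direction was not tested. The fourth gene that was higher was TFDP2, a partner of E2F factors, at 0.35.

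Of 8 tested genes of the ATR and CHK1 checkpoint, which senses stalled forks, 6 were lower and 1 higher, with a median log2-fold change of -0.69. RAD1, part of the checkpoint clamp, had a log2-fold change of -1.24, the kinase CHEK1 one of -1.18 and ATR one of -0.88, while ETAA1, an activator of ATR, was higher by 0.29 (adjusted p = 0.015, edgeR) and RAD17, which loads the checkpoint clamp, did not pass. The call of ETAA1 was lost without hypoxia replicate 2, without normoxia replicate 1 and when a fold change beyond 1.5 was required. All 25 mitosis genes were lower, with a median of -1.22 that lies close to that of the replication genes. PLK1 (-1.95), AURKA (-1.74) and CDC20 (-1.69) fell furthest, and ANLN least (-0.17). The count of lower mitosis genes was 24 of 25 with at least 10 counts in each library required and 23 of 25 when a fold change beyond 1.5 was required. Of 19 genes of homologous recombination and the Fanconi pathway, 18 were lower and FANCF did not pass, with a median of -0.87. Among them XRCC2 had a log2-fold change of -1.11 and EXO1, a nuclease that resects DNA ends, one of -1.05. These counts are read against the same background of 38.5% lower and 39.2% higher, and the differences between the lists were not tested.

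**Figure D4:**
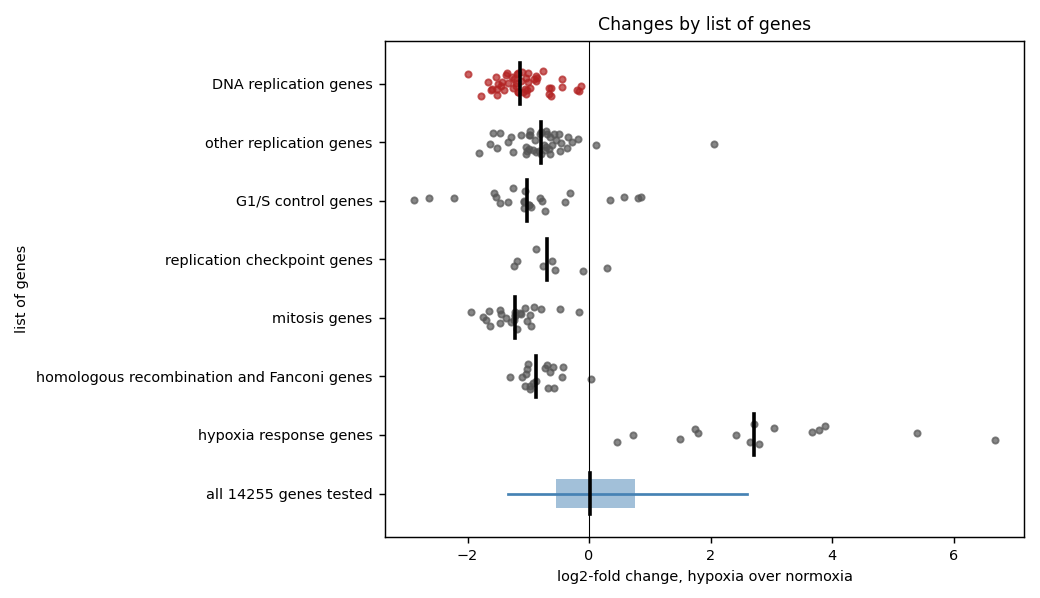
The log2-fold change of hypoxia over normoxia of each tested gene (points) by list, with the median of each list (black lines); for all 14255 genes the box spans the 25th to 75th and the line the 5th to 95th percentile. The replication genes have a median of -1.14, the mitosis genes -1.22, the hypoxia response genes 2.71 and all genes 0.02.

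The libraries of a condition differed in a way that most of the replication genes shared. Hypoxia replicate 2 was the lowest hypoxia library for 38 of the 48 genes, and hypoxia replicate 1 the highest for 36. Normoxia replicate 3 was the lowest normoxia library for 42 genes and normoxia replicate 2 the highest for 37. How many of all genes tested had the same lowest and highest libraries was not counted, so these counts have no background. For the mitosis genes the mean log2 CPM was 7.44, 7.49 and 7.47 in normoxia replicates 1 to 3, lowest in replicate 1. Normoxia replicate 3 also had 409 CPM of NDRG1, a hypoxia response gene, against 163 and 140 CPM in normoxia replicates 1 and 2. Without this library the median log2-fold change of the replication genes was -1.20, and over all 6 libraries left out in turn it ranged from -1.20 to -1.08. The genes outside all lists whose log2 CPM followed the mean of the 48 genes most closely over the 6 libraries were RANBP1, UMPS, XBP1, VRK1 and RUVBL1, each with a Pearson r above 0.999. Such likeness was common: 1904 of 11574 genes compared, 39 of the 48 among them, reached an r of 0.99.

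Neighbouring genes could add reads to some of the values, because the strand setting of the counting is not given in the sources used here. In GENCODE v29, 12 of the 48 genes share exonic bases with another gene of the count table. The longest of the overlaps with genes of the count table is that of TYMS with ENOSF1 on the opposite strand. It covers 967 of the 2470 exonic bases of TYMS, and ENOSF1 was higher under hypoxia (log2-fold change 0.48). MCM7 shares 392 exonic bases with AP4M1, which was also higher (0.40). RFC5 shares 186 with WSB2 (log2-fold change -0.74) and MCM2 45 with TPRA1 (-0.71), and both of these neighbours were lower, as the replication genes were. FEN1 shares 166 with TMEM258 (0.16). Some overlaps with genes outside the count table are longer, such as that of POLA2 with AP000944.2 (2012 bases, same strand). TIPIN shares 579 of its 2755 exonic bases on the same strand with RPL9P25, which is also outside the count table. The part of these overlaps in the results was not tested.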

How the data were processed

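RNA was extracted with a column kit and libraries were made from mRNA (SMARTer chemistry). The authors deposited a table of counts, whole numbers of reads per gene without normalization, and FPKM for the same genes. For the 48 genes the FPKM could be recomputed from the counts and 1 length per gene. The aligner, annotation and strand setting are not given in the sources used here. The submitters' processing notes name the mouse builds GRCm38 and mm10, although the sample labels and gene symbols are human, so no coordinates were taken from the tables.

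The count test was that of edgeR 4.0.16, run in R 4.3.3 (filterByExpr, TMM, glmQLFit and glmQLFTest, condition as the only term) with Benjamini-Hochberg adjustment at 0.05. CPM are scaled to TMM-adjusted totals. On FPKM, limma 3.58.1 was run with log2(FPKM + 1) wherever the mean was 1 or more, a scale that understates changes of low genes. Ratios used counts scaled to FPKM. Library totals are given with the results. All replicate pairs differed by more than sampling noise (chi-square per gene 4.90 to 10.8), so each counted as 1 replicate. The tests were tried on simulated data first.

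The named genes are all 48 replication genes, the genes in the ratios, up to 3 genes with the largest increase and 3 with the largest decrease among the called genes of each other list with a mean log2 CPM of at least 1, VEGFA, CA9, EGLN3 and cell type markers. Of the genes that this rule names, 1 is not reported here. The 5 most alike genes were ranked by Pearson r. TFDP2, RBL1, RB1, RRM2B, RNASEH2C, RAD17, ANLN, FANCF, NDRG1, TP63 and the overlapping genes were picked once their values were known. The members and lists were chosen with earlier results of these data known. Alternatives were DESeq2 1.42.0 (size factors, Wald test), library totals, other filters and pseudocounts, glmTreat, the replicate number as a block and each library left out in turn.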

Additional observations from a re-analysis of the deposited data

How the results depend on the processing

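Under the alternatives run, no replication gene changed direction. Between 39 and 48 of the 48 genes were lower and none was higher, and the median log2-fold change stayed between -1.20 and -1.06. With limma on FPKM, 45 or 46 were lower. Against the fit described first, the log2-fold changes of the genes tested in both fits shifted by a median of 0.047 with library totals, -0.041 with no filter and 0.077 with at least 10 counts in each library. The calls of 3 genes with small changes moved: RFC1 and RPA3 as given with their values, and CDT1, which was lower without a filter (-0.17, adjusted p = 0.015, edgeR), without hypoxia replicate 1 (-0.17, adjusted p = 0.039) and without normoxia replicate 3 (-0.19, adjusted p = 0.0051). When a fold change of 1.5 was required, 8 replication genes lost their call, and the counts fell to 5698 of all genes, 11 homologous recombination and Fanconi genes lower, 2 G1/S control genes higher and 0 checkpoint genes higher. The count of checkpoint genes that were higher ranged from 0 to 1 with 1 library left out; it was 0 without hypoxia replicate 2 or without normoxia replicate 1, in which ETAA1 lost its call. With the replicate number as a block, 47 replication genes were lower and 10875 of all genes passed. Same-numbered libraries did not deviate together (r = 0.02, -0.07 and 0.00 for numbers 1 to 3), so no shared effect of the number was seen. This cannot exclude that same-numbered libraries were handled together. The smallest count of a replication gene in a library was 164.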
